A study of Capra hircus with 9 samples.

Results

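Fibroblast growth factor (FGF) and epidermal growth factor (EGF) receptor signalling is described here through 10 genes in the submandibular gland, a major salivary gland, of goats at 3 ages. The genes were chosen by name: the FGF ligands FGF10 and FGF7, the FGF receptors FGFR1, FGFR2 and FGFR3, the EGF receptor family EGFR, ERBB2, ERBB3 and ERBB4, and KIT, another receptor tyrosine kinase. All 10 were found among the 21227 genes of the table, and all 10 passed the filter on low counts in each comparison. The libraries came from healthy female Lubo goats kept under the same conditions, 3 goats at each age: kids of 1 month (group A, libraries A1 to A3), unbred adolescents of 12 months (group B, B1 to B3) and adults of 24 months (group C, C1 to C3). All goats were fasted and then anaesthetised with xylazine before slaughter. No other treatment and no genetic alteration was described. Each library was made from submandibular gland tissue of 1 goat, and the design asks how transcript levels differ between ages. In whole tissue, fewer cells of a type and less RNA per cell cannot be told apart.

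FGFs bind receptor tyrosine kinases together with heparan sulfate, and the activated receptors signal through RAS and MAP kinases, PI3 kinase and phospholipase C gamma. In the developing salivary gland, FGF10 and FGF7 made by the mesenchyme act on the epithelial form of FGFR2 and drive budding and growth, and FGFR1 takes part in the same process. The EGF receptor family works as pairs: EGFR and ERBB4 bind ligand and have an active kinase, ERBB2 has no known ligand of its own and serves as the preferred partner, and ERBB3 binds neuregulins but has a weak kinase. KIT is the receptor of stem cell factor, and it marks progenitor cells in salivary ducts as well as mast cells.

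Total expected counts, the authors' estimates of reads per transcript summed over a library, lay between 11546808 and 17586065 at 1 month, between 18231894 and 21065278 at 12 months and between 22040776 and 24901065 at 24 months. Levels are given as CPM, counts per 1000000 of the library size after TMM scaling, and 3 counts correspond to 0.149 to 0.197 CPM. CPM is not divided by transcript length, so values of different genes are not compared with each other as levels. Library A2 stood apart from A1 and A3. The summed level of 8 acinar cell genes was 107 CPM in A2, 25339 in A1 and 18542 in A3, against 79909 to 161450 in groups B and C, and none of the 8 was at 0 in A2. The mucin gene MUC19 made up most of this sum in every library but A2. AQP5, the water channel of acinar cells, was at 0.508 CPM in A2 and at 224 and 133 CPM in A1 and A3. Thymocyte genes were found in all libraries of group A, with a summed level over 9 genes of 3055 CPM in A1, 10590 in A2 and 1496 in A3, and of 7.15 to 23.2 CPM in groups B and C. The sum of 5 thymic epithelium genes was 106 to 1142 CPM in group A and 0.939 to 2.66 CPM in the older groups. Each comparison of the 10 genes with group A is therefore given with and without A2, and for the other pathway genes the calls that changed without A2 are described. The part of these other cells in the results was not tested, and the 10 genes are also given relative to acinar, duct and basal, and stromal genes of the same library.

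FGF10, the mesenchymal signal for gland budding, was at 8.96, 0.435 and 7.42 CPM in A1, A2 and A3, at 16.2, 13.0 and 21.4 CPM in B1, B2 and B3, and at 9.67, 10.4 and 9.32 CPM in C1, C2 and C3. Each library of group B was above each of group A and of group C, and group C varied least. FGF7, also called keratinocyte growth factor, was at 9.72, 0.0361 and 9.54 CPM in group A, at 17.2, 9.93 and 10.1 CPM in group B, and at 8.23, 2.33 and 2.54 CPM in group C. In A2 the FGF7 estimate was 0.670 counts, under the 3 counts taken as the limit of detection. C1 held over 3 times the FGF7 level of C2 and C3, and its value was still below each of group B.

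The FGF receptors were all lowest in A2. FGFR2, the receptor of FGF10 and FGF7, was at 48.8, 28.0 and 34.4 CPM in A1, A2 and A3, at 93.8, 108 and 119 CPM in group B, and at 108, 84.7 and 126 CPM in group C. Every older library was above every library of group A, and groups B and C overlapped. FGFR1, the receptor more typical of mesenchyme, was at 67.5, 10.1 and 59.8 CPM in group A, at 104, 86.2 and 74.6 CPM in group B, and at 108, 113 and 89.8 CPM in group C. A1 and A3 lay close under the lowest library of group B, and A2 lay far below both. FGFR3, an FGF receptor best known as a brake on bone growth, was at 2.22, 0.762 and 2.24 CPM in group A, at 6.30, 6.81 and 5.86 CPM in group B, and at 9.37, 10.4 and 8.90 CPM in group C. These values did not overlap between any of the ages. Most of the FGFR3 count came from 1 newly assembled transcript, which took 76.8% ± 19.5, 91.4% ± 1.98 and 90.5% ± 3.07 of the gene's count in groups A, B and C (mean ± SD, n = 3), and the rest came from another new transcript and from a locus whose product is FGFR3.

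EGFR, the receptor of EGF and of several related ligands, was at 121, 68.3 and 88.9 CPM in A1, A2 and A3, at 210, 175 and 266 CPM in group B, and at 145, 187 and 162 CPM in group C. All 6 older libraries were above those of group A, and groups B and C overlapped. ERBB2, the ligandless partner, was at 90.6, 8.16 and 68.3 CPM in group A, at 203, 247 and 199 CPM in group B, and at 246, 360 and 512 CPM in group C. C1 was close to B2, while C2 and C3 were above every library of group B. ERBB3, the neuregulin receptor with a weak kinase, was at 124, 6.20 and 88.0 CPM in group A, at 242, 321 and 225 CPM in group B, and at 317, 319 and 370 CPM in group C. ERBB4, which binds neuregulins and signals on its own, was at 17.2, 0.145 and 9.17 CPM in group A, at 49.9, 72.5 and 47.7 CPM in group B, and at 78.1, 29.1 and 33.4 CPM in group C. Its estimate in A2 was 2.70 counts, under the limit of 3, and C1 again stood above C2 and C3. KIT was at 17.3, 7.0 and 21.2 CPM in group A, at 19.3, 20.7 and 19.8 CPM in group B, and at 15.7, 20.5 and 13.6 CPM in group C. Its 3 ages overlapped, and A2 was the lowest library.

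**Figure D1:**
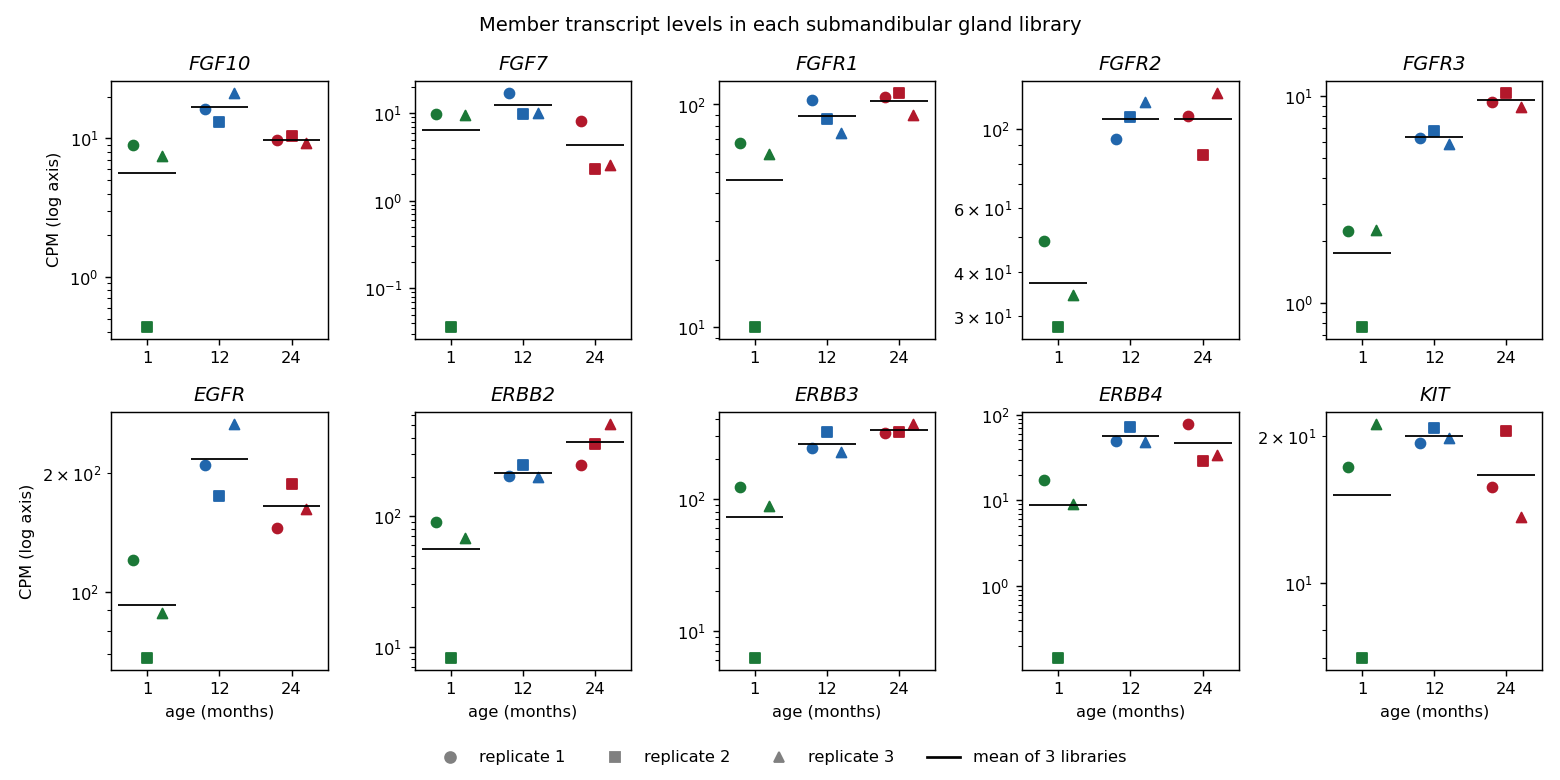
Levels of the 10 genes in CPM (log axis, a different range in each panel) against age in months, with 1 point per library, the symbol giving the replicate and the bar the mean of 3 libraries. A2, the square at 1 month, is the lowest library in all 10 panels, and 9 genes have all group B libraries above all group A libraries.

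Of the 10 genes, 3 rose from 1 to 12 months at an edgeR adjusted p under 0.05, and none fell. FGFR2 rose by 1.59 ± 0.290 on the log2 scale (log2 fold change ± SE, 3 against 3 libraries, edgeR adjusted p = 0.0159), which is 3.02-fold. FGFR3 rose by 1.94 ± 0.489 (edgeR adjusted p = 0.0379), and EGFR by 1.29 ± 0.320 (edgeR adjusted p = 0.0362). The adjusted p is that of edgeR's quasi-likelihood test with Benjamini-Hochberg adjustment over all 14621 genes tested, of which 6.51% were called higher and 11.7% lower in group B. With the study's further threshold of an absolute log2 fold change over 2, no member was called, against 11.5% of all genes. The other 7 genes did not pass: ERBB2 had a log2 fold change of 2.04 ± 0.753 and ERBB4 of 2.77 ± 1.15, larger than those that passed but with larger errors. ERBB3 had 1.94 ± 0.889, FGF10 1.68 ± 0.876, FGFR1 1.03 ± 0.622, FGF7 1.03 ± 1.15 and KIT 0.48 ± 0.402. The groups did not overlap for 9 of the 10 genes, all but KIT, and 26.7% of all genes tested were likewise higher in every library of group B. The median log2 fold change of the 10 genes was 1.64, and that of all genes tested was -0.02.

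Without A2 the errors shrank and 7 genes rose from 1 to 12 months. ERBB2 then rose by 1.45 ± 0.186 (edgeR adjusted p = 0.00247), ERBB3 by 1.32 ± 0.231, ERBB4 by 2.11 ± 0.337 and FGF10 by 1.05 ± 0.265, beside FGFR2, FGFR3 and EGFR. In that fit 21.5% of all genes were called higher and 22.2% lower in group B. FGFR1 at 0.48 ± 0.177, FGF7 at 0.36 ± 0.300 and KIT at 0.06 ± 0.157 did not pass. The number of genes called depended on single libraries in the other direction too. Leaving out A3, B1, B2 or B3 left no member past the threshold, and of all genes 1688, 0, 67 and 110 were then called, against 2660 with all 6 libraries. Over these 4 fits the log2 fold change of FGFR2 was 1.48 to 1.70. Without A1, EGFR and FGFR2 passed and FGFR3 did not. Scaled by library totals in place of TMM, no member passed at 12 or at 24 months. Of all genes, 3258 of 14621 and 3354 of 14695 were then called, against 2660 and 2574 with TMM. With library totals the log2 fold changes of all but KIT remained positive at 12 months.

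Between 1 and 24 months 3 of the 10 genes rose and none fell. ERBB2 rose by 2.89 ± 0.801 on the log2 scale (edgeR adjusted p = 0.0413), 7.40-fold, and its group means were 55.7 ± 42.7 CPM in group A and 373 ± 134 CPM in group C (mean ± SD, n = 3). FGFR3 rose by 2.60 ± 0.546 (edgeR adjusted p = 0.0174) and FGFR2 by 1.64 ± 0.376 (edgeR adjusted p = 0.0222). Of the 14695 genes tested, 7.10% were called higher and 10.4% lower in group C. ERBB2 and FGFR3 also passed the log2 fold change over 2, as did 13.2% of all genes. The 7 others did not pass: EGFR had a log2 fold change of 0.96 ± 0.384, ERBB3 2.35 ± 0.863, ERBB4 2.53 ± 1.12, FGFR1 1.32 ± 0.620, FGF10 0.95 ± 0.835, KIT 0.27 ± 0.475 and FGF7 -0.44 ± 1.18. Group C lay above group A without overlap for 8 genes, all but FGF7 and KIT, and so did 20.3% of all genes. The median of the 10 genes was 1.48, and that of all genes tested was -0.01. This comparison shares the libraries of group A with the one before, so the results of the pair are not independent.

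Without A2, 5 genes rose from 1 to 24 months, and 14.1% of all genes were called higher and 14.2% lower. ERBB2 rose by 2.33 ± 0.415 (edgeR adjusted p = 0.00463), ERBB3 by 1.77 ± 0.338, ERBB4 by 1.93 ± 0.525, FGFR2 by 1.46 ± 0.343 and FGFR3 by 2.21 ± 0.439. EGFR had a log2 fold change of 0.76 ± 0.327 and FGF7 of -1.04 ± 0.585, neither of which passed. FGFR3 alone passed without A3 or without C1, and no member passed without C2 or without C3, where 546 and 305 genes were called against 2574 with all 6 libraries.

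**Figure D2:**
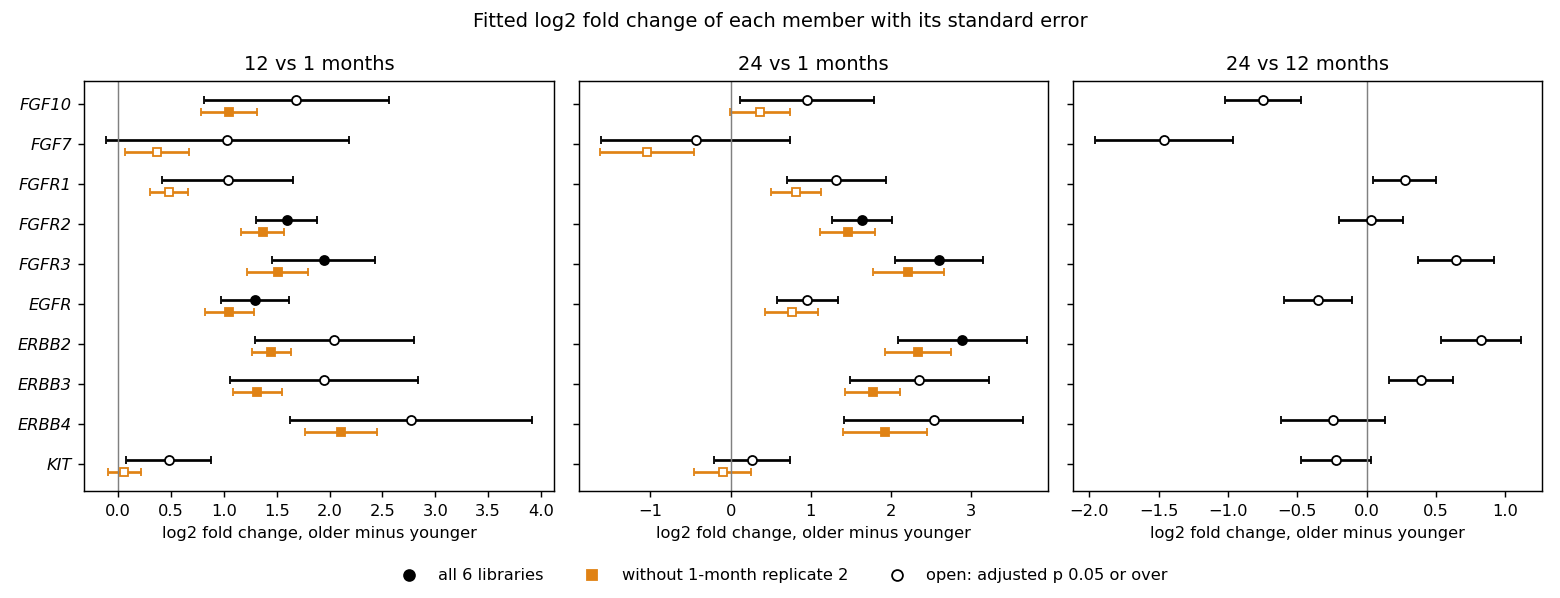
Fitted log2 fold change of each gene, older minus younger age, with its SE as bars, for 12 against 1, 24 against 1 and 24 against 12 months. Circles use all 6 libraries of a comparison and squares leave out A2, filled symbols passed at an adjusted p under 0.05, and in both comparisons with group A the squares of FGF10, FGF7, FGFR1 and the ERBB genes lie at lower values with shorter bars than the circles.

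Between 12 and 24 months none of the 10 genes passed. The edgeR test called 0% of the 14076 genes higher and 0% lower, 1555 genes had an unadjusted p under 0.05, and the Wald test of DESeq2 and the exact test of edgeR called 21 genes each, none of them a member. An unadjusted p under 0.05 was found for 4 members. FGF7 had a log2 fold change of -1.46 ± 0.499 and FGF10 of -0.74 ± 0.274, ERBB2 had 0.83 ± 0.289 and FGFR3 0.64 ± 0.273, and the lowest edgeR adjusted p of the 10 genes was 0.426. FGFR3 was higher in every library of group C than in every one of group B, as were 7.91% of all genes, and FGF10 and FGF7 were lower in every library of group C, as were 7.50%. FGFR2, with a log2 fold change of 0.03 ± 0.229, had group means of 107 ± 12.4 and 106 ± 20.8 CPM. Leaving out C1 changed this comparison most: ERBB2 was then called higher (17.9% of all genes were), and FGF7 and ERBB4 lower (14.5%). Without C1 the log2 fold change was 1.05 for ERBB2, -2.29 for FGF7 and -0.82 for ERBB4. Leaving out any other library of this comparison called no member.

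Ratios of members within a library do not depend on depth or on scaling, and 8 were compared between ages. The ERBB2 to EGFR ratio of expected counts, on the log2 scale, was -0.41, -3.06 and -0.38 in A1, A2 and A3, -0.05, 0.50 and -0.41 in B1, B2 and B3, and 0.76, 0.94 and 1.66 in C1, C2 and C3. Every library of group C was above every library of both younger groups. The mean difference was 2.41 between 24 and 1 months, 1.52 without A2, and 1.11 between 24 and 12 months, each at p = 0.1 in the two-sided exact permutation test with 3 against 3 libraries, the smallest p this design allows. The ERBB3 to EGFR ratio was also higher at 24 than at 1 month in every library, by 2.18 on the log2 scale and by 1.02 without A2 (exact permutation test, p = 0.1 with A2). The ERBB4 to EGFR ratio was higher in every library of both older groups than in group A, by 3.05 at 12 and 3.04 at 24 months, and by 1.10 and 1.09 without A2. The ERBB3 to ERBB2 ratio overlapped between all ages, with means of 0.14 ± 0.465, 0.27 ± 0.104 and -0.09 ± 0.423 (SD, n = 3) in groups A, B and C.

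Among the FGF receptors, FGFR3 was higher relative to the other 2 in group C. The log2 ratio of FGFR3 to FGFR1 was -4.93, -3.72 and -4.74 in group A, -4.05, -3.66 and -3.67 in B1, B2 and B3, and -3.52, -3.44 and -3.34 in C1, C2 and C3, so that group C was above both other groups without overlap. The difference was 1.03 against group A, 1.40 without A2, and 0.36 against group B (exact permutation test, p = 0.1 for 24 against 1 and for 24 against 12 months). FGFR3 to FGFR2 was higher in group C than in group A by 1.07, and by 0.74 without A2, and higher than in group B by 0.61, again without overlap. FGFR2 to FGFR1 overlapped between all ages, and its difference between 12 and 1 months was 0.21 with A2 and 0.91 without it. FGF10 to FGF7 overlapped as well, and A2, with 0.670 FGF7 counts, had the highest ratio. After Benjamini-Hochberg adjustment over the 8 ratios, the lowest permutation p was 0.533 for 12 against 1, 0.16 for 24 against 1 and 0.267 for 24 against 12 months.

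**Figure D3:**
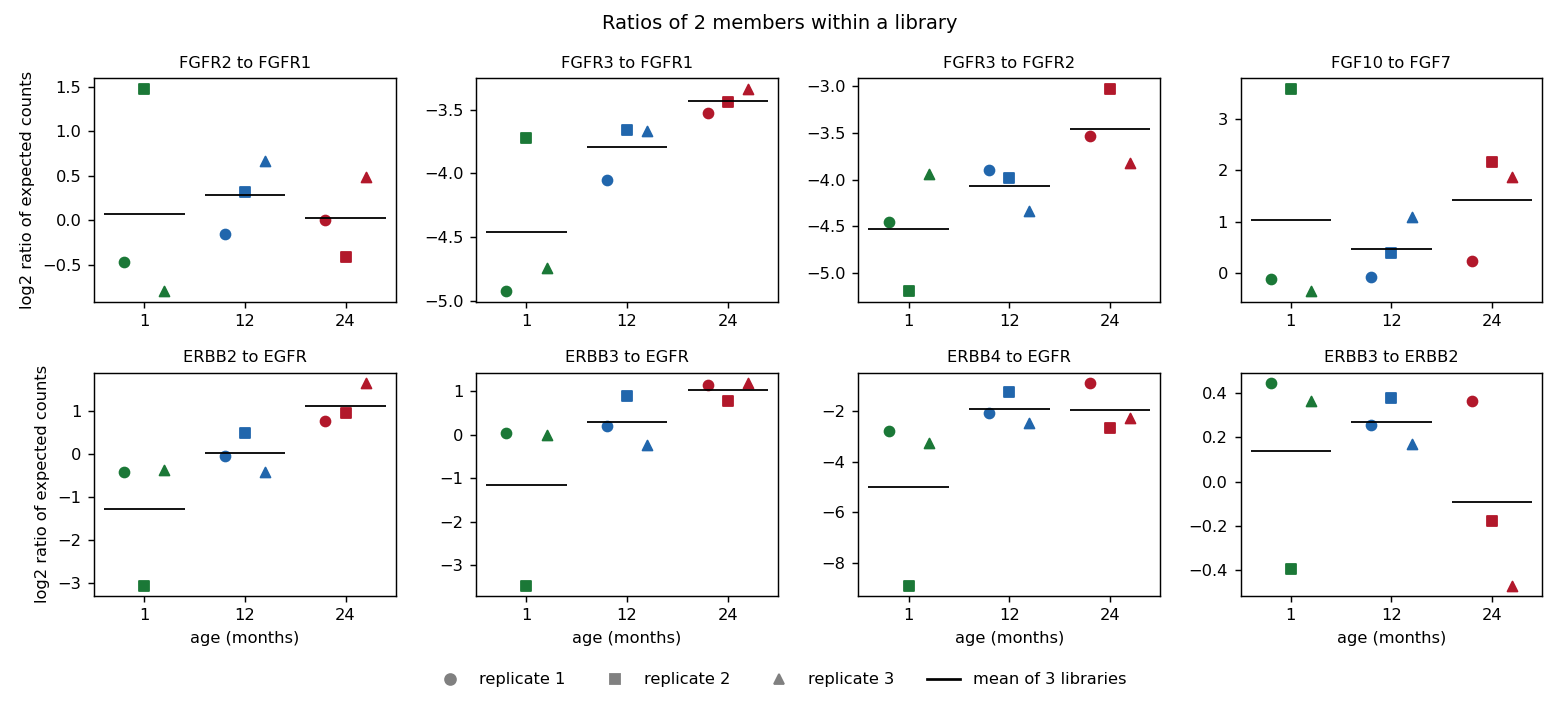
Log2 ratio of the expected counts of 2 genes in the same library against age in months, with 1 point per library, the symbol giving the replicate and the bar the mean of 3. ERBB2 to EGFR and FGFR3 to FGFR1 are higher in all 24-month libraries than in all others. A2 is far from A1 and A3 in the 3 ratios to EGFR, in FGFR2 to FGFR1 and in FGF10 to FGF7.

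Each gene was also set against the summed level of 10 duct and basal epithelium genes in the same library, a comparison added after seeing the data. That sum was 978, 944 and 712 CPM in A1, A2 and A3 and 1890 to 2863 CPM in groups B and C. In A2 it was made up of other genes than in A1 and A3: KRT5, KRT14 and KRT8 were highest of group A there, at 134, 54.4 and 316 CPM, while EPCAM was at 7.15 and ELF5 at 0.290 CPM. The thymic epithelium genes were also highest in A2, so the sum is not read there as a measure of gland epithelium. Without A2, FGFR2 relative to this sum differed by 0.06 on the log2 scale between 12 and 1 months and by -0.18 between 24 and 1 months, against log2 fold changes of 1.37 and 1.46 without that reference. ERBB3 differed by 0.14 at 24 months, EGFR by -0.27 and -0.88 at 12 and 24 months, and FGFR1 by -0.85 and -0.84. ERBB2 differed by 0.64 and FGFR3 by 0.56 at 24 months, and ERBB4 by 0.83 at 12 and 0.21 at 24 months. With A2, the relative level was higher without overlap only for ERBB4 at 12 months, by 3.03, and for ERBB2 at 24 months, by 1.79 (exact permutation test, p = 0.1). Between 24 and 12 months ERBB2 was higher relative to the epithelial sum by 0.50, without overlap. EGFR, FGF10, FGF7 and KIT were lower without overlap, with log2 differences of -0.61, -0.98, -1.94 and -0.51. The epithelial sum itself was 1990 to 2251 CPM in group B and 1890 to 2863 CPM in group C. A higher sum lowers the relative level of every gene, and the share of all genes without overlap was not computed.

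The direction turned when the genes were set against the summed level of the 8 acinar cell genes, a comparison likewise added after seeing the data. The acinar sum differed more between group A and the older groups than any member. MUC19 alone was at 23898, 52.4 and 17570 CPM in A1, A2 and A3 and at 74975 to 157050 CPM in the older groups. Outside A2 the acinar sum is thus mostly the level of MUC19. Relative to that sum all 10 genes were lower at 12 than at 1 month, by log2 differences of -0.51 for ERBB4 to -4.26 for KIT, and all 10 were lower at 24 months, by -1.01 for ERBB4 to -4.65 for KIT. The groups did not overlap for 9 genes at 12 months, all but ERBB4, and for 7 at 24 months, all but FGFR3, ERBB2 and ERBB4 (exact permutation test, p = 0.1 for each that did not overlap). A higher sum lowers the relative level of every gene, and the share of all genes without overlap was not computed. Without A2 the differences were smaller for 9 of the genes and still below 0 for all 10. FGFR2 then differed by -0.87 and -1.0 at 12 and 24 months, EGFR by -1.21 and -1.69, ERBB2 by -0.80 and -0.18, FGFR3 by -0.75 and -0.26, and FGF7, the exception, by -1.94 and -3.76. Between 24 and 12 months FGF7 alone was lower without overlap, by -1.82.

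FGF10 and FGF7 are known as products of stromal cells. The sum of 8 fibroblast stroma genes was 5647, 1310 and 6494 CPM in A1, A2 and A3 and 617 to 1511 CPM in the older groups, and the collagen genes COL1A1 and COL3A1 made up most of it in group A. Collagen genes carried most of the fall of this sum. COL1A1, COL1A2 and COL3A1 had log2 fold changes of -2.77, -2.40 and -2.60 at 12 months with A2, and -3.23, -2.92 and -3.14 without it. PDGFRA, PDGFRB, DCN and LUM had -0.01, 0.23, -0.07 and 0.34 with A2, and -0.52, -0.17, -0.63 and -0.25 without it. At 24 months without A2 these 4 genes had -0.96, 0.01, -0.82 and -1.11. DCN at 12 months (edgeR adjusted p = 0.0193) and PDGFRA at 24 months (edgeR adjusted p = 0.0346) then passed as lower. Relative to this sum FGF10 was higher by 4.41 at 12 and 3.91 at 24 months than at 1 month, and by 3.74 and 3.23 without A2. FGF7 was higher by 4.98 and 3.52, and by 3.03 and 1.57 without A2. This was not particular to the ligands, since all 10 genes were higher relative to the stromal sum without overlap. The differences at 12 months were 2.52 for KIT to 6.27 for ERBB4. KIT had a log2 fold change of only 0.48 without that reference. A lower sum raises the relative level of every gene, and the share of all genes without overlap was not computed. For KIT, whose other source in tissue is mast cells, the sum of 7 mast cell genes was 75.1, 36.1 and 220 CPM in group A and 13.6 to 19.7 CPM in the older groups. SRGN, which other white blood cells express too, made up 54.3, 23.5 and 193 CPM of that sum in A1, A2 and A3. TPSB2 in the same list passed as lower at 12 months, with a log2 fold change of -2.13 (edgeR adjusted p = 0.0143). At 24 months TPSB2 had -0.98 and did not pass. CPA3 had -0.405 and -1.85 at 12 and 24 months, neither of which passed. GATA2 had -0.11 and 0.19 at 12 and 24 months, and FCER1A had 0.23 at 24 months, none of which passed. SRGN passed as lower at both ages, with -3.21 and -3.94. MS4A2 and HDC passed the filter on low counts only without A2. HDC then had -2.58 (edgeR adjusted p = 0.0316) and -2.05 at 12 and 24 months, and MS4A2 -1.81 and -1.92. Of these 4 values only HDC at 12 months passed. Without A2, TPSB2 passed at both ages, with -2.43 and -1.23, and CPA3, GATA2 and FCER1A did not pass.

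Several genes were assembled or annotated as more than 1 transcript: 15 for FGFR2, 14 for FGFR1, 4 for ERBB4, 3 for FGFR3, 2 each for ERBB2 and KIT, and 1 for each of the others. Of these 44 transcripts, 32, 31 and 29 passed the filter in the 3 comparisons, and none was called, against 2.98%, 1.50% and 0% of all transcripts tested in the comparisons of 12 with 1, 24 with 1 and 24 with 12 months. Reads shared by several transcripts were divided between them by estimation, so the value of a single transcript is uncertain. Within FGFR1, XM_018041770.1 took 25.8, 2.64 and 17.2% of the count in A1, A2 and A3, 14.8, 28.9 and 26.1% in B1, B2 and B3, and 41.5, 44.3 and 52.9% in C1, C2 and C3. XM_018041778.1 took 47.2, 54.9 and 38.0% in the 1-month libraries, 40.1, 50.4 and 42.3% in those of 12 months, and 22.3, 21.8 and 24.4% in those of 24 months. The share of XM_018041770.1 was thus higher, and that of XM_018041778.1 lower, in every 24-month library than in any younger one. In CPM, XM_018041770.1 had means of 9.32 ± 8.60, 19.9 ± 4.77 and 47.4 ± 2.69 in groups A, B and C (SD, n = 3), and its adjusted p between 24 and 12 months in edgeR was 0.644. These 2 transcripts were picked after their values were seen.

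For FGFR2, XM_018041434.1 took the largest share in every library but A2, with 36.2, 2.24 and 30.7% in A1, A2 and A3 and 32.2 to 50.8% in groups B and C. In A2 the largest shares were 16.6% for XM_018041429.1 and 16.5% for XM_018041433.1. In ERBB2, the newly assembled transcript and XM_018065011.1 shared the count, with 60.3% ± 13.2, 46.9% ± 6.39 and 46.9% ± 10.5 in the new one in groups A, B and C (SD, n = 3). The epithelial and mesenchymal splice forms of the FGF receptors were not told apart here, since the exons of each transcript were not used.

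**Figure D4:**
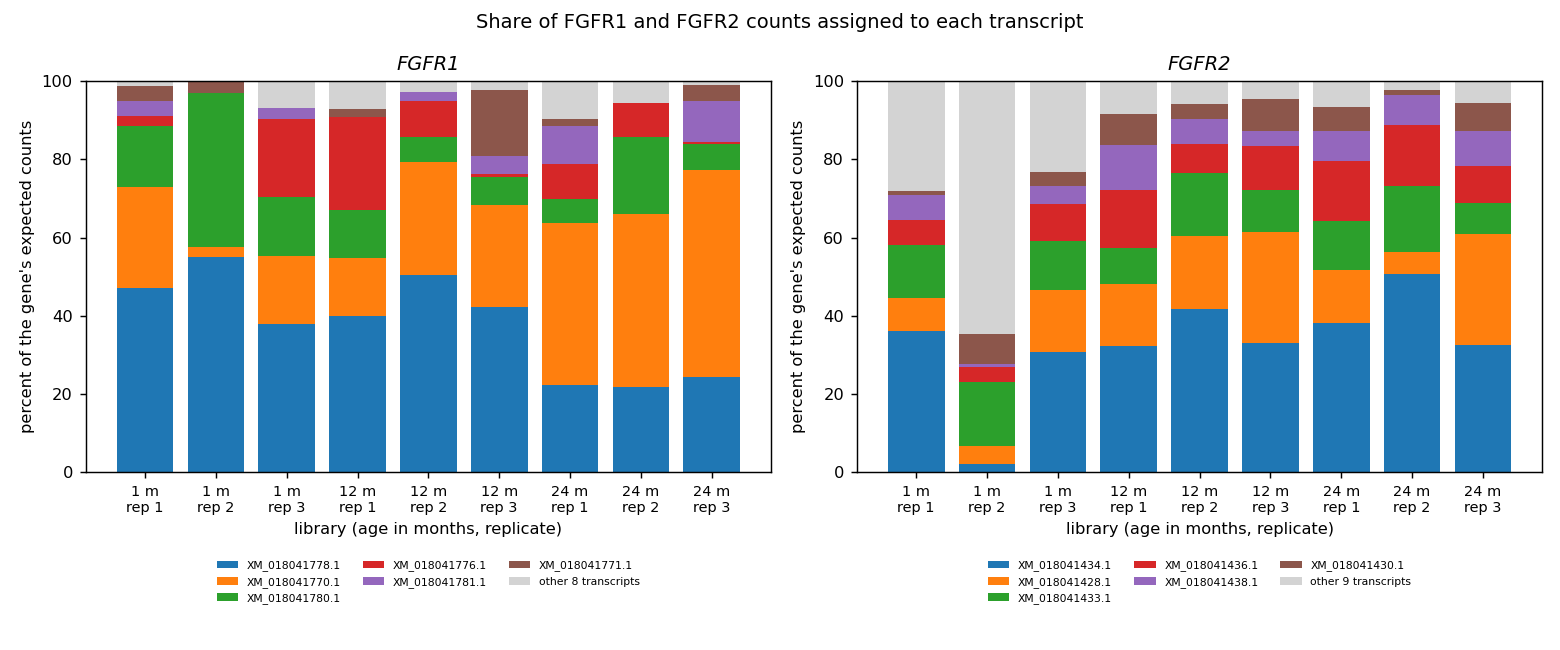
Percent of the expected counts of FGFR1 and FGFR2 that was assigned to each transcript, 1 stacked bar per library, with the 6 largest transcripts in colour and the rest in grey. In FGFR1, XM_018041770.1 takes 41.5 to 52.9% in the 24-month libraries and at most 28.9% in the others, and in FGFR2 the mixture of A2 differs from that of the other 8 libraries.

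Beyond the 10 genes, 104 genes of the same pathways were listed in 9 groups, and 103 were found. Of 84 tested between 12 and 1 months, 7 were higher in group B and 6 lower (8.33% and 7.14%, against 6.51% and 11.7% of all genes). Of 83 tested between 24 and 1 months, 7 were higher and 6 lower (8.43% and 7.23%, against 7.10% and 10.4%), and of 81 tested between 24 and 12 months none passed. Their median log2 fold changes were 0.30, 0.40 and -0.05. The shares called higher lie near those of all genes. Without A2, 27 of 86 were higher and 13 lower at 12 months (31.4% and 15.1%, against 21.5% and 22.2% of all genes), and 12 of 86 were higher and 8 lower at 24 months (14.0% and 9.30%, against 14.1% and 14.2%).

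Among the 20 further FGF ligands, 8 were tested between 12 and 1 months, with 2 higher and 1 lower. FGF11 and FGF12, members of the intracellular FGFs that act on sodium channels, had log2 fold changes of 1.67 ± 0.352 (edgeR adjusted p = 0.0237) and 2.56 ± 0.601 (edgeR adjusted p = 0.0317). FGF11 also rose at 24 months, by 1.52 ± 0.427, and FGF12 had a mean of 0.542 CPM there, against 1.80 at 12 and 0.332 CPM at 1 month. FGF22, a relative of FGF7 and FGF10, was at 0.689, 1.27 and 0.460 CPM in A1, A2 and A3 and at 0 in all 6 older libraries, so that it was at least 4.77-fold lower at 12 and at least 5.08-fold lower at 24 months when the older group is set at 3 counts per library. FGF14, another intracellular FGF, was at 6.85, 0 and 3.05 CPM in group A and 26.6 to 67.5 CPM in the older groups, and did not pass with A2 (log2 fold change 3.91 ± 1.28 at 12 months). Without A2 it passed at 12 and 24 months, with 3.24 and 3.26, and FGF1, FGF9 and FGF13 passed at 12 months, with 1.50, 1.31 and 1.05.

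Of the 6 further FGF receptors and co-receptors found, FGFBP3 was the only one to pass with all libraries. FGFBP3, which releases FGFs from the matrix, was at 8.69, 7.69 and 3.91 CPM in A1, A2 and A3 and at 0 in all older libraries, at least 40.0-fold lower at 12 and at least 42.6-fold lower at 24 months on the same floor. KL, the klotho co-receptor of the endocrine FGF23, was at 55.6 CPM in A3 and at 0.651 and 0.217 CPM in A1 and A2, and the older libraries had 0.601 to 1.22 CPM. Its group A level thus rested on 1 library, and so did its call as lower without A2, with log2 fold changes of -5.01 and -4.87.

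EGF itself was at 0 counts in all 9 libraries, which with 3 counts as the limit allows a level of up to 0.149 to 0.197 CPM. TGFA, another ligand of EGFR, was at 6.35, 0.399 and 7.91 CPM in group A, 10.2 to 16.9 CPM in group B and 6.73 to 18.5 CPM in group C, and did not pass with A2. NRG1, a ligand of ERBB3 and ERBB4, had a log2 fold change of 1.37 ± 0.408 at 12 months (edgeR adjusted p = 0.0588). NRG2, another neuregulin, was at 6.35, 0.109 and 7.07 CPM in A1, A2 and A3 and at 12.5 to 20.7 CPM in all older libraries, above every one of group A, and did not pass with A2 (edgeR adjusted p = 0.244 and 0.151). Without A2, NRG2 was higher at both older ages, with log2 fold changes of 1.09 and 1.62, and NRG1 and TGFA at 12 months, with 1.05 and 1.02. NRG4, a ligand of ERBB4, was the only one of the group to pass with all libraries, at 24 months: it rose by 2.65 ± 0.715 (edgeR adjusted p = 0.0375) from 0.170 to 1.11 CPM on average. Without A2 its edgeR adjusted p was 0.0656. KITLG, the stem cell factor that binds KIT, was at 36.7, 3.41 and 35.3 CPM in group A, 62.7, 69.2 and 65.0 CPM in group B and 68.1, 24.5 and 32.6 CPM in group C. It did not pass in any comparison of all 6 libraries, and without A2 it was higher at 12 months by 0.87 (edgeR adjusted p = 0.00308). C1 was above C2 and C3, as for FGF7 and ERBB4. None of 4 genes of ligand shedding, ADAM17 among them, passed with all libraries, and without A2 ADAM10 was lower at 12 months, with a log2 fold change of -0.61 (edgeR adjusted p = 0.00957).

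Heparan sulfate genes had 3 of 14 higher at both older ages and none lower with all libraries. HS6ST2, a sulfotransferase of heparan sulfate, rose by 3.36 ± 0.616 at 12 months (edgeR adjusted p = 0.0161) and by 2.73 ± 0.599 at 24 months. SULF2, which removes sulfate groups from the same chains, was at 115, 26.0 and 77.3 CPM in group A and 222 to 347 CPM in the older groups, with log2 fold changes of 2.07 ± 0.524 and 2.18 ± 0.571. SDC4, the core protein syndecan-4, rose by 1.59 ± 0.273 (edgeR adjusted p = 0.0141) and 1.99 ± 0.418. The summed level of the 14 genes was 416 to 570 CPM in group A, 806 to 951 CPM in group B and 759 to 1179 CPM in group C.

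Of 23 adaptors and kinases, 2 were lower at both older ages and none higher with all libraries. CBL, the ubiquitin ligase that targets activated receptors, was at 275, 970 and 259 CPM in A1, A2 and A3 and at 50.8 to 72.3 CPM in the older groups, a log2 fold change of -3.16 ± 0.625 at 12 and -2.95 ± 0.644 at 24 months. PLCG1, phospholipase C gamma 1, fell by 2.04 and 1.86 on the log2 scale, from 190, 426 and 134 CPM in group A. Both genes also act in T cell receptor signalling, both were highest in A2, and the thymocyte sum was highest there too, at 10590 CPM, and its part in these differences was not tested. Without A2 the log2 fold changes were -2.27 and -2.03 for CBL and -1.44 and -1.23 for PLCG1, and all 4 passed. The medians over the 23 genes were -0.17 and -0.12.

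Among 15 feedback inhibitors, SPRED3 and DUSP4 were higher and DUSP5 lower at both older ages. DUSP4, a MAP kinase phosphatase, was at 47.6, 81.8 and 37.6 CPM in group A and 149 to 216 CPM in the older groups, a rise of 1.84 ± 0.381 and 1.75 ± 0.436. SPRED3, an inhibitor of RAF activation, rose by 1.93 ± 0.491 and 1.98 ± 0.546. DUSP5, a phosphatase specific for ERK, fell by 2.67 and 2.70 on the log2 scale, from a mean of 9.53 CPM to 1.43 and 1.35 CPM. SPRY1, SPRY2, SPRY4 and DUSP6, commonly used as readouts of FGF signalling, did not pass with A2, with log2 fold changes at 12 months of 0.70, -0.02, -0.81 and 0.76. Without A2, SPRY1 passed at 12 months, with 0.40 (edgeR adjusted p = 0.0428), and so did LRIG1, an inhibitor of the EGF receptor family, with 1.43 at 12 and 1.66 at 24 months. Of 9 downstream targets, transcription factors and cyclin D1, EGR1 passed at 12 months (-2.98 ± 0.808, edgeR adjusted p = 0.0462) and MYC at 24 months (-2.44 ± 0.702, edgeR adjusted p = 0.0459). EGR1 was at 45.5, 261 and 52.9 CPM and MYC at 25.1, 106 and 33.6 CPM in A1, A2 and A3, so that A2 was highest for both, as it was for the thymocyte sum. Without A2 both passed at both ages, with log2 fold changes of -1.71 and -1.55 for EGR1 and -1.32 and -1.52 for MYC. ETV4 and ETV5, the ETS factors induced by FGF receptors, did not pass with A2, with log2 fold changes of 2.14 ± 0.878 and -0.47 ± 0.554 at 12 months. Without A2, ETV4 was higher at 12 months by 1.52, and ETV1, a related factor, was higher at 12 and 24 months by 1.68 and 1.13.

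**Figure D5:**
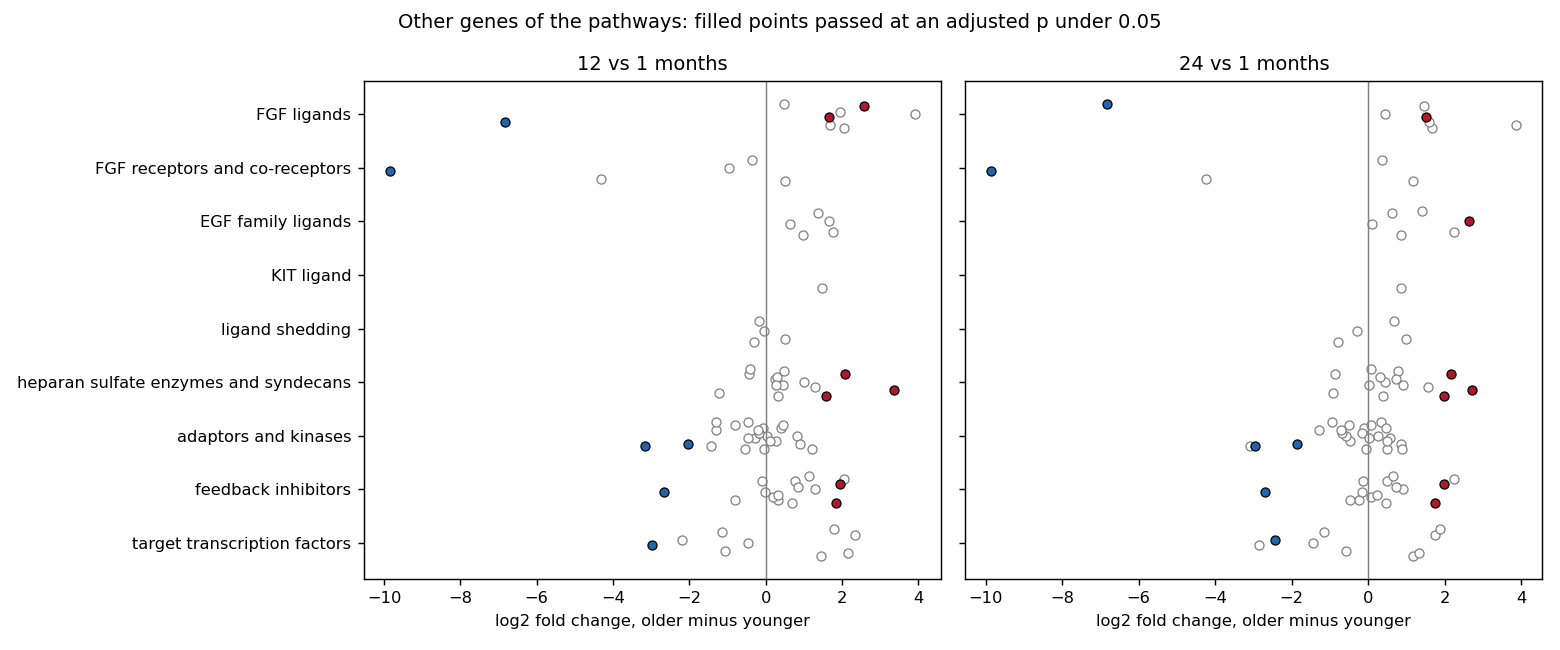
Fitted log2 fold change of each tested gene of the 9 pathway groups (rows), for 12 against 1 and 24 against 1 months, with 1 point per gene spread vertically for legibility. Filled red points passed as higher and filled blue as lower at an adjusted p under 0.05, and the 2 points below -6 are FGFBP3 and FGF22, whose older libraries are all at 0, so their fitted values are no measure of size.

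The genes whose profile over the 9 libraries was most like that of each member were sought for the 6 members whose log2(CPM + 1) had an SD over 1. Likeness was the root mean square difference of the centred log2(CPM + 1) values over the 9 libraries. FGF10 was closest to PDGFD (0.178) and CCND1 (0.213), and FGF7 to LUM (0.293), a matrix proteoglycan gene, and PLCXD3 (0.376). FGFR1 was closest to DHTKD1 (0.145) and HHAT (0.207). ERBB2 was closest to TNFSF13 (0.139) and RAP1GAP (0.158), which shared its level in C3 above C1 and C2. ERBB3 was closest to FOXC1 (0.129) and CRACR2A (0.190), and ERBB4 to TSPAN6 (0.175) and MKX (0.180), both with C1 above C2 and C3. All 12 of these genes were lowest in A2, the library that sets much of each profile.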

How the data were processed

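RNA from submandibular glands of 9 goats (3 per age, 1 library each) was depleted of ribosomal RNA and sequenced on an Illumina HiSeq with a strand-marking kit. The authors removed ribosomal reads with Bowtie2 2.2.8, aligned with TopHat2 2.1.1, assembled transcripts with Cufflinks and estimated abundance with RSEM (genome build and version of RSEM not given in the sources used here). Each value the authors deposited is an expected count of a transcript (52739 transcripts, 42686 known and 10053 new), not normalized, 3.49% of values above 0 being whole. Of the known identifiers, 42652 matched RefSeq assembly GCF_001704415.2, used for names only.

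Here, transcripts were summed to 21227 genes and rounded. Symbols were joined regardless of case, and FGFR3, FABP4, TPSB2 and MYH7 also took LOC entries found by their product description. The 436 transcripts without a usable symbol (3.07% of counts) were left out. Each pair of ages was compared on its own 6 libraries with edgeR 4.0.16 (R 4.3.3): filterByExpr, TMM, glmQLFit and glmQLFTest, Benjamini-Hochberg over all genes tested. SEs were the absolute log2 fold change divided by the square root of F. The FPKM part of the study's threshold could not be applied. CPM used TMM library sizes over all 9 libraries. Ratios and relative levels were tested by exact permutation (two-sided, scipy 1.17.1) (smallest p 0.1). For these no share over all genes was computed. Intervals and limits of 3 counts cover counting error only. The p-values measure spread between 3 goats per age. Alternatives were DESeq2 1.42.0, limma 3.58.1, other scalings and filters, a replicate block, single transcripts and each library left out. All members are named, and of each pathway group at most 4 genes by the smallest p among those that passed. Other pathway genes, and values singled out in the text, were named after their values were seen. The members and lists were chosen with earlier results of these data known. In the lists, FGFBP2 was not found.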

Additional observations from a re-analysis of the deposited data

How the results depend on the processing

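With 3 libraries a group, one of them far from its group, calls near the threshold are not stable, and a member that did not pass is not shown to be equal between ages. The count of members called, 3 at both 12 and 24 against 1 month, was 0 and 0 when scaled by library totals, 5 and 5 with DESeq2's Wald test, 0 and 0 over single transcripts, and 0 to 7 and 0 to 5 with each library left out. Of all genes, 2660 and 2574 were called in the main fits, 3258 and 3354 with library totals, and 4646 and 3994 with DESeq2's Wald test. With each library left out, 0 to 6529 and 305 to 4275 genes were called. For 24 against 12 months the count of members called was 0, and 0 to 3 with each library left out, where 0 to 4653 genes were called. Scaling by totals moved the median log2 fold change of all genes by -0.46, -0.68 and -0.21 in the 3 comparisons. With a log2 fold change over 1 in place of 2, 3 members were called at 12 months in place of 0. The share of all genes at that threshold is not given here, and without a fold threshold 18.2% of all genes were called. Of the pathway genes, DESeq2 called 23 in place of 13 at 12 months (27.7% in place of 15.5%, beside 31.9% in place of 18.2% of all genes), and leaving out each library gave 0 to 40, 1 to 20 and 0 to 25 in the 3 comparisons. The cause was not tested.

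Replicate numbers did not pair the samples: the correlation of same-numbered libraries was -0.130 to -0.114 between groups A and B, -0.242 to 0.427 between A and C, where 3 of 6 libraries correlated best with their own number, and -0.129 to -0.012 between B and C. With the replicate block 0 members and 927 genes passed at 12 months, and 3 members and 2154 genes at 24 months.

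Some directions reversed. Relative to the acinar sum, every member with a positive log2 fold change against group A turned negative, whether or not it had passed. Those that had passed were FGFR2, FGFR3 and EGFR at 12 months and FGFR2, FGFR3 and ERBB2 at 24 months. At 12 months FGF10 was -2.38, FGF7 -1.80, FGFR1 -3.45, FGFR2 -3.25 and FGFR3 -2.79. EGFR was -3.56, ERBB2 -2.26, ERBB3 -2.13, ERBB4 -0.51 and KIT -4.26. At 24 months FGF10 was -3.24, FGFR1 -3.33, FGFR2 -3.37, FGFR3 -2.30 and EGFR -4.05. ERBB2 was then -1.64, ERBB3 -1.87, ERBB4 -1.01 and KIT -4.65. FGFR2 between 24 and 12 months was -0.12. Of the other reversals, only EGFR at 12 months and FGFR2 at 24 months, both relative to epithelium, had passed with all 6 libraries. KIT turned to -0.063 and -0.50 with library totals at 12 and 24 months, and ranged from -0.10 to 0.54 at 24 months with each library left out. FGF7 at 24 months was 0.058 in limma, 0.38 with the block and 3.52 relative to stroma. Relative to epithelium EGFR was -0.015 and -0.62 and KIT -0.71 and -1.22 at 12 and 24 months, and FGFR2 was -0.24 between 24 and 12 months. FGFR2 in that comparison was -0.029 with upper-quartile factors, -0.17 with totals, -0.0046 with all 9 libraries in one fit, and -0.145 to 0.156 with each library left out. With each library left out, the log2 ratio difference of FGFR2 to FGFR1 ranged from -0.23 to 0.91 at 12 and -0.48 to 0.66 at 24 months, FGF10 to FGF7 from -1.27 to 0.71 and -0.32 to 1.66, ERBB3 to ERBB2 at 12 months from -0.14 to 0.29, and ERBB4 to EGFR between 24 and 12 months from -0.54 to 0.35.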
